A study of Rattus norvegicus with 4 samples.

Results

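Genes of the neurotrophin and GDNF family signalling systems were followed across the cell classes of the rat ventral tegmental area, 7 in all: the ligands Ntf3 and Bdnf, the Trk receptors Ntrk2 and Ntrk3, the low-affinity neurotrophin receptor Ngfr, the GDNF family receptor Ret and its co-receptor Gfra2. The genes were taken by name, by a rule that uses no measured value, and all 7 were found among the 32883 features of the deposited matrices. Single-nucleus RNA-seq had been run on 4 libraries of ventral tegmental area tissue from Sprague-Dawley rats, a laboratory stock, aged 90 to 120 days and experimentally naive. Female 1, Female 2, Male 1 and Male 2 each pooled tissue of 3 animals of that sex, from 6 animals per sex, so no value belongs to a single animal. Nuclei had been stained and sorted by flow cytometry, and molecules were counted with unique molecular identifiers (UMIs), 1 per captured RNA. No library carried a treatment, a transgene or a mutation.

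Neurotrophins are secreted, dimeric growth factors that are made as precursors and cut to their mature form. NT-3, the product of Ntf3, acts mainly through TrkC (Ntrk3), and BDNF acts through TrkB (Ntrk2), while p75NTR (Ngfr) binds all neurotrophins and their precursors. GDNF family ligands bind a GFR-alpha co-receptor held at the membrane by a lipid anchor, and that complex signals through the Ret tyrosine kinase, with neurturin preferring the co-receptor made from Gfra2. BDNF and GDNF are both widely studied for their effects on survival and maintenance of midbrain dopamine neurons.

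Nuclei were assigned to classes by UMI gates on genes other than the 7. A dopamine nucleus held at least 2 UMIs each of Th, the rate-limiting enzyme of dopamine synthesis, and Slc6a3, the dopamine transporter. The other neuron gates required at least 2 UMIs of Slc26a7 with at least 1 of Gad2, at least 2 UMIs of Gad1 (GABA gate), or at least 2 UMIs of Slc17a6 with none of Gad1 (glutamate gate). The glial gates used Mog with Mobp for oligodendrocytes, Pdgfra for oligodendrocyte precursors, Gja1 with Aqp4 for astrocytes and Csf1r with C1qa for microglia. The 4 libraries held 21606 barcodes and 19714338 to 25824289 UMIs, and 20620 nuclei were kept, with a median of 2384 to 3861 UMIs per nucleus by library. The gates took 306 dopamine, 93 Slc26a7 with Gad2, 1131 GABA, 1525 glutamate, 8505 oligodendrocyte, 1334 precursor, 1853 astrocyte and 924 microglia nuclei. Another 4814 nuclei met no gate and 135 met both a neuron and a glial gate or several glial gates. Levels are given as CPM, the UMIs of a gene divided by all UMIs of the nuclei of a gate in a library and scaled to a common total, and their SD is taken over the 4 libraries (n = 4). Dopamine nuclei were checked with 7 dopamine neuron markers that the gate did not use, and all 7 were detected. Their summed level was 1975 to 2369 CPM in the dopamine gate and 905 to 1168 CPM in the Slc26a7 gate. It was 143 to 171 CPM in the glutamate gate and 34.9 to 60.8 CPM in the GABA gate. Of the 3 markers set for GABA neurons, Otx2 was at 0 in every gate and in the nuclei outside the gates. The 3 summed to 266.6 to 343.3 CPM in the GABA gate and 212.0 to 336.8 CPM in the Slc26a7 gate. They summed to 9.93 to 36.8 CPM in the dopamine gate and 8.24 to 18.9 CPM in the glutamate gate. Some nuclei met several neuron gates and were counted in the dopamine gate before the others: 19 dopamine nuclei also met the Slc26a7 gate, 19 dopamine nuclei also met the glutamate gate, and 36 nuclei met both the Slc26a7 and the glutamate gate. In all, 36 barcode sequences occurred in more than 1 library.

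Ntf3 was concentrated in dopamine nuclei. Its level there was 92.2 CPM (Female 1), 91.4 CPM (Female 2), 115.1 CPM (Male 1) and 91.7 CPM (Male 2), from 305 UMIs in all. In the Slc26a7 with Gad2 gate it was 44.1, 14.8, 13.8 and 7.83 CPM in the same order, and these values rest on 9, 3, 2 and 2 UMIs. The dopamine values lay above every value of every other gate. GABA nuclei held 2.50 to 14.5 CPM, with the highest value in Female 2, and glutamate nuclei held 1.55 to 2.54 CPM. Glia held almost none of this ligand: 7 UMIs in oligodendrocytes, 1 in precursors, 1 in astrocytes and 0 in microglia. A count of 3 UMIs over all microglia would equal 2.16 CPM, so the dopamine level was at least 45.6-fold higher than in microglia.

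At these depths Ntf3 was detected in a minority of dopamine nuclei. Of the 306 dopamine nuclei, 107 had at least 1 Ntf3 UMI. Nuclei were also thinned to 1000 UMIs, so that deep and shallow classes could be set side by side. Shallower nuclei were left out of these shares: 0 of 306 dopamine, 3 of 1525 glutamate, 370 of 8505 oligodendrocyte, 25 of 1334 precursor, 20 of 1853 astrocyte and 234 of 924 microglia nuclei, so the microglial shares cover the deeper nuclei of that gate. After thinning, 7.95% ± 1.01 (SD, n = 4 libraries) of dopamine nuclei kept a Ntf3 UMI, against 1.85% ± 1.19 in the Slc26a7 gate, 0.474% ± 0.325 in GABA, 0.216% ± 0.0458 in glutamate nuclei and 0 in microglia. Without thinning the dopamine share was 35.0%, at a median of 9112 UMIs per nucleus, and the microglial share was 0 at a median of 1357 UMIs.

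Bdnf had a different distribution, with its highest level in glutamate nuclei. There it stood at 126.2 CPM (Female 1), 82.9 CPM (Female 2), 108.1 CPM (Male 1) and 110.5 CPM (Male 2). Dopamine nuclei held 61.0, 57.4, 56.4 and 65.5 CPM, the narrowest spread of the neuron gates relative to the mean, and each of these lay below the lowest glutamate library. The Slc26a7 gate followed with 13.8 to 29.6 CPM and the GABA gate with 9.42 to 13.6 CPM. The glial gates held 0 to 7.75 CPM by library. After thinning to 1000 UMIs, 9.65% ± 1.48 of glutamate nuclei and 5.87% ± 1.05 of dopamine nuclei kept a Bdnf UMI, against 0.349% ± 0.404 in microglia.

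**Figure D1:**
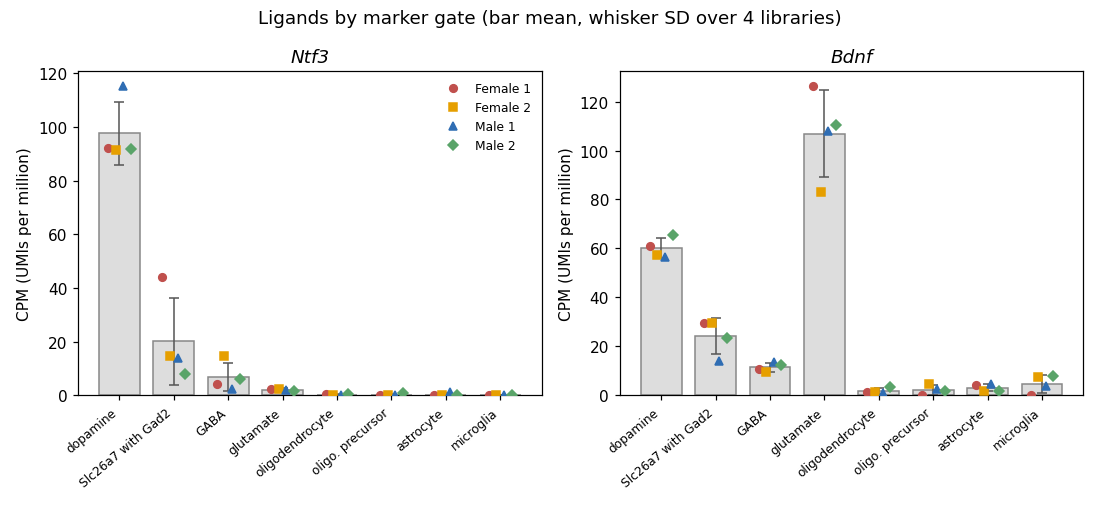
Ntf3 and Bdnf levels by gate. Bars are means over the 4 libraries, whiskers the SD and points the single libraries, on a linear axis of CPM from 0; the 4 dopamine points of Ntf3 (91.4 to 115.1) stand above all others, and the Bdnf points of glutamate nuclei (82.9 to 126.2) above those of dopamine nuclei (56.4 to 65.5).

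These differences were tested with the quasi-likelihood test of edgeR on the UMI sums, with library as a block and Benjamini-Hochberg adjustment over 12338 genes. The SE beside each log2 change, here and below, was not fitted directly. It is the size of the change divided by the square root of the test's F statistic, an approximation. Ntf3 was higher in dopamine than in Slc26a7 nuclei by 2.41 ± 0.40 (log2, SE; adjusted p = 8.88e-06), than in GABA nuclei by 3.92 ± 0.26 (adjusted p = 8.24e-17) and than in glutamate nuclei by 5.56 ± 0.29 (adjusted p = 3.28e-20), each in 4 of 4 libraries. Between the Slc26a7 and GABA gates the difference of 1.51 ± 0.56 missed the threshold (adjusted p = 0.0922). GABA exceeded glutamate nuclei by 1.64 ± 0.40 (adjusted p = 0.00297), a call that was lost without Female 2 (0.99, adjusted p = 0.208). Bdnf was lower in dopamine than in glutamate nuclei by 0.79 ± 0.14 on the log2 scale, a fitted change of -0.79 (adjusted p = 1.78e-05), and higher in dopamine than in GABA nuclei by 2.43 ± 0.21 (adjusted p = 7.68e-14). Its excess in dopamine over Slc26a7 nuclei was 1.39 ± 0.35 (adjusted p = 0.00306), and 1.03 with adjusted p = 0.125 when nuclei that met several neuron gates were left out.

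The sequence upstream of a start site was at hand for 3 of the 7 genes, Ntf3, Bdnf and Ret, with 10 annotated starts in all, from RefSeq on GRCr8. They are shown because Ntf3 and Ret are the 2 genes whose mean level was highest in the dopamine gate, and because Bdnf start 4 carries 1 of the searched motifs. Each run gives the 250 bases before the start, 5′ to 3′ on the gene's strand, and capitals mark a motif match. Searched on both strands were the NBRE AAAGGTCA, which the dopamine lineage factor Nr4a2 binds, its shorter core AGGTCA, which lies within it, the cAMP response element TGACGTCA and its shorter form TGACG, which also lies within it.
Ntf3 start 1, chr4:160670624-160670873, minus strand: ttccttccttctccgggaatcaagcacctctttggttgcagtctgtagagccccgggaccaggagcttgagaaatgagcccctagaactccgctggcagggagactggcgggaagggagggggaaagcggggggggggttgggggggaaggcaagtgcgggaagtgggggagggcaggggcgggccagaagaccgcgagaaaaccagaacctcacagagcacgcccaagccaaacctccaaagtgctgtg
Ret start 1, chr4:153040557-153040806, minus strand: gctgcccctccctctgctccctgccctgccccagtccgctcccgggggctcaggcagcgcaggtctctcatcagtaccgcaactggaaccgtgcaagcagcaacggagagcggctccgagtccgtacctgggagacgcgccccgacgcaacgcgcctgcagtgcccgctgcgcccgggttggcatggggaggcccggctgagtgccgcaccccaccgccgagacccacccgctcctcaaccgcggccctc
Bdnf start 4, chr3:116637608-116637857, plus strand: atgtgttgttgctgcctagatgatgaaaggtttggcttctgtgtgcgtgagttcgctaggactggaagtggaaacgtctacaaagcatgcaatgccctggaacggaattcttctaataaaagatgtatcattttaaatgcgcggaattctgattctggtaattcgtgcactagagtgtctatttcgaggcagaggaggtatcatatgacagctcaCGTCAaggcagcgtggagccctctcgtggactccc
The printed Ntf3 and Ret windows held none of the 4 strings, which says only that these letters are not there. The Bdnf window held CGTCA, the reverse complement of TGACG, beginning 35 bases before the start. The window of Bdnf start 6, which is not printed, held 1 match to the core AGGTCA, 6 bases before that start, and the other 4 Bdnf windows held none of the strings. Over 33469 such windows of all genes, 18.2% held TGACG on either strand, 14.1% the core AGGTCA, 1.59% the full cAMP response element and 1.24% the NBRE. GC content was 62.8% in the Ntf3 window, 72.8% in the Ret window and 46.8% in the Bdnf window, against a median of 52% over all genes. The deposited counts are per gene and were made on another build, so they do not say which start was in use.

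The share of each gene's UMIs that came from each gate shows how far a small class can dominate a gene. Dopamine nuclei gave a mean of 3.76% of all UMIs of a library but 59.9% of Ntf3 UMIs, with a range of 51.9% to 73.0% over libraries. They gave 23.8% of Ret UMIs, 6.27% of Bdnf UMIs, 5.08% of Ntrk3 UMIs, 4.22% of Gfra2 UMIs and 4.07% of Ntrk2 UMIs. Glutamate nuclei gave 45.3% of Bdnf UMIs against 16.7% of all UMIs. GABA nuclei gave 33.2% of Gfra2 UMIs against 11.6% of all UMIs, and astrocytes 24.2% of Ntrk2 UMIs against 7.88%. Oligodendrocytes held 28.4% of all UMIs and 0.632% of Ntrk3, 0.737% of Ntrk2 and 32.5% of Ngfr UMIs.

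**Figure D2:**
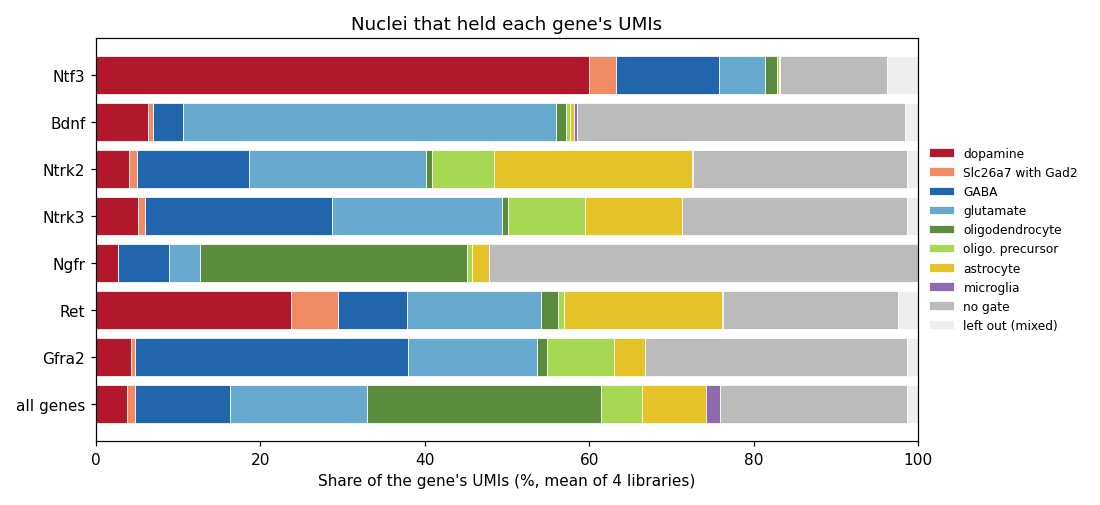
Source of each gene's UMIs. Each bar splits the UMIs of 1 gene by gate (mean percentage of 4 libraries), with all genes together at the bottom; dopamine nuclei hold 59.9% of Ntf3 UMIs against 3.76% of all UMIs, and nuclei of no gate hold 40.0% of Bdnf UMIs.

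Among the receptors, Ntrk2 was present in every neuron gate at similar levels and peaked in astrocytes. Astrocytes held 1472, 1517, 1624 and 1467 CPM in Female 1, Female 2, Male 1 and Male 2, and precursors held 697 to 785 CPM. The neuron gates lay between 436 and 663 CPM in every library, and oligodendrocytes (9.68 to 19.3 CPM) and microglia (4.93 to 18.2 CPM) were far below. The astrocyte level exceeded that of precursors by 1.17 ± 0.08 (log2, SE; edgeR adjusted p = 3.41e-17) and precursors exceeded glutamate nuclei by 0.35 ± 0.08 (adjusted p = 0.000256). Of the 6 differences between neuron gates, 1 passed the test: the Slc26a7 gate was below the glutamate gate, with a change of -0.44 ± 0.11 (adjusted p = 0.00558), a call lost without Female 1 (-0.41, adjusted p = 0.0693), without nuclei of several neuron gates (-0.43, adjusted p = 0.0577) and with DESeq2 (-0.36, adjusted p = 0.107). Dopamine against GABA nuclei gave -0.04 ± 0.09 (adjusted p = 0.807). Thinned to 1000 UMIs, 75.0% ± 1.66 of astrocytes and 40.0% ± 2.02 of dopamine nuclei kept a Ntrk2 UMI, against 0.930% ± 0.563 of microglia.

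Ntrk3 reached its highest mean levels in GABA nuclei and oligodendrocyte precursors. GABA nuclei held 1110, 1101, 1013 and 942 CPM by library in the order above, and precursors 1000, 1055, 980 and 1009 CPM. These groups overlapped, and their fitted difference was -0.12 ± 0.11 (adjusted p = 0.348). Its sign was opposite to that of the mean CPM (1042 in GABA nuclei, 1011 in precursors), and 1 of 4 libraries went its way on CPM. The fit used TMM scaling, which CPM does not. Astrocytes (666 to 846 CPM), dopamine nuclei (694 to 757 CPM) and glutamate nuclei (570 to 785 CPM) overlapped too, and dopamine against glutamate gave 0.15 ± 0.11 (adjusted p = 0.385). Dopamine against astrocyte nuclei gave -0.33 ± 0.11 (adjusted p = 0.00859) and was lower in 3 of 4 libraries. This call was lost without Male 2 (-0.31, adjusted p = 0.0517), without the library term (-0.33, adjusted p = 0.0544) and with DESeq2 (-0.31, adjusted p = 0.125). Dopamine nuclei lay below GABA nuclei by a change of -0.47 ± 0.11 (adjusted p = 0.000741) and above the Slc26a7 gate by 0.70 ± 0.15 (adjusted p = 0.000487), which held the lowest neuronal values, 366 to 577 CPM. The latter call was lost when nuclei of several neuron gates were left out (0.44, adjusted p = 0.117). Oligodendrocytes held 7.77 to 21.7 CPM, so that the change from precursors to oligodendrocytes was -6.19 ± 0.15 (adjusted p = 4.51e-36). The matching change for Ntrk2 was -5.65 ± 0.11 (adjusted p = 3.95e-39). Both Trk receptors were therefore low in mature oligodendrocyte nuclei and high in their precursors, in 4 of 4 libraries.

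Ngfr was close to absent. It had 134 UMIs in 111 kept nuclei, and the 8 gates together held 63 of those UMIs: 41 in oligodendrocytes, 10 in GABA, 6 in glutamate, 3 in dopamine, 2 in astrocyte and 1 in precursor nuclei, with 0 in the Slc26a7 and microglia gates. Its highest mean among the gates was 1.82 ± 0.88 CPM in oligodendrocytes, too few counts to pass edgeR's filter in the fit across gates, so no difference between gates was tested. Nuclei of no gate held 71 UMIs in 51 nuclei, at 3.90, 6.66, 4.45 and 1.20 CPM by library. In those 51 nuclei the 4 general neuron markers summed to 5811 CPM, against 2962 CPM in the other nuclei of no gate. Markers of endothelial and mural cells were at 0, against 46.4 and 36.8 CPM in those others. Oligodendrocyte markers summed to 1027 CPM against 3297 CPM in the others, and the GABA gate held 203 to 325 CPM of them. Fibroblast markers were at 10.9 against 11.7 CPM.

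Ret was highest in the dopamine and the Slc26a7 with Gad2 gates. It stood at 280.8, 186.7, 254.3 and 250.3 CPM in the dopamine nuclei of the 4 libraries, in the same order. In the Slc26a7 with Gad2 gate it stood at 269.6, 167.6, 241.9 and 231.0 CPM. Female 2 was the lowest library in both gates, and the 2 gates overlapped throughout. Their fitted difference was 0.21 ± 0.16 (log2, SE; edgeR adjusted p = 0.497), while Ntf3 separated the same 2 gates by 2.41. Astrocytes came next with 123.8, 85.2, 90.8 and 78.4 CPM, all below both of these gates and all above the glutamate gate, at 33.0 to 45.6 CPM. Dopamine exceeded astrocyte nuclei by 1.16 ± 0.13 (adjusted p = 2.72e-11), and astrocytes exceeded glutamate nuclei by 1.57 ± 0.13 (adjusted p = 9.81e-15). GABA nuclei held 22.5 to 31.6 CPM. Precursors, oligodendrocytes and microglia held 0 to 12.5 CPM. The 7 dopamine neuron markers summed to 11.9 to 19.6 CPM in astrocytes, and oligodendrocytes of the same libraries held 2.16 to 3.31 CPM of Ret. After thinning, 22.0% ± 3.88 of dopamine nuclei and 9.33% ± 1.87 of astrocytes kept a Ret UMI, against 0.239% ± 0.0273 of oligodendrocytes and 0.363% ± 0.50 of microglia.

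Gfra2, in contrast, was led by GABA nuclei. They held 189.5, 201.0, 166.9 and 180.7 CPM by library, above every value of the other gates. Precursors followed with 84.9 to 125.1 CPM, then dopamine nuclei with 58.2 to 84.9 CPM and glutamate nuclei with 46.2 to 102.7 CPM. In the glutamate gate Female 2 was the high library and the other 3 lay at or below 59.4 CPM. The Slc26a7 gate (23.5 to 55.3 CPM) and astrocytes (23.4 to 45.1 CPM) overlapped, with a fitted difference of -0.08 ± 0.38 (adjusted p = 0.884). GABA exceeded dopamine nuclei, with a change from GABA to dopamine of -1.31 ± 0.15 (adjusted p = 8.08e-10), and exceeded precursors by 0.67 ± 0.13 (adjusted p = 2.19e-05). The excess of dopamine over Slc26a7 nuclei, 1.09 ± 0.35 (adjusted p = 0.0258), was lost without Female 2 (0.92, adjusted p = 0.0832) and without Male 2 (0.84, adjusted p = 0.245). Ret and Gfra2, the kinase and its co-receptor, thus led in different neuron gates.

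**Figure D3:**
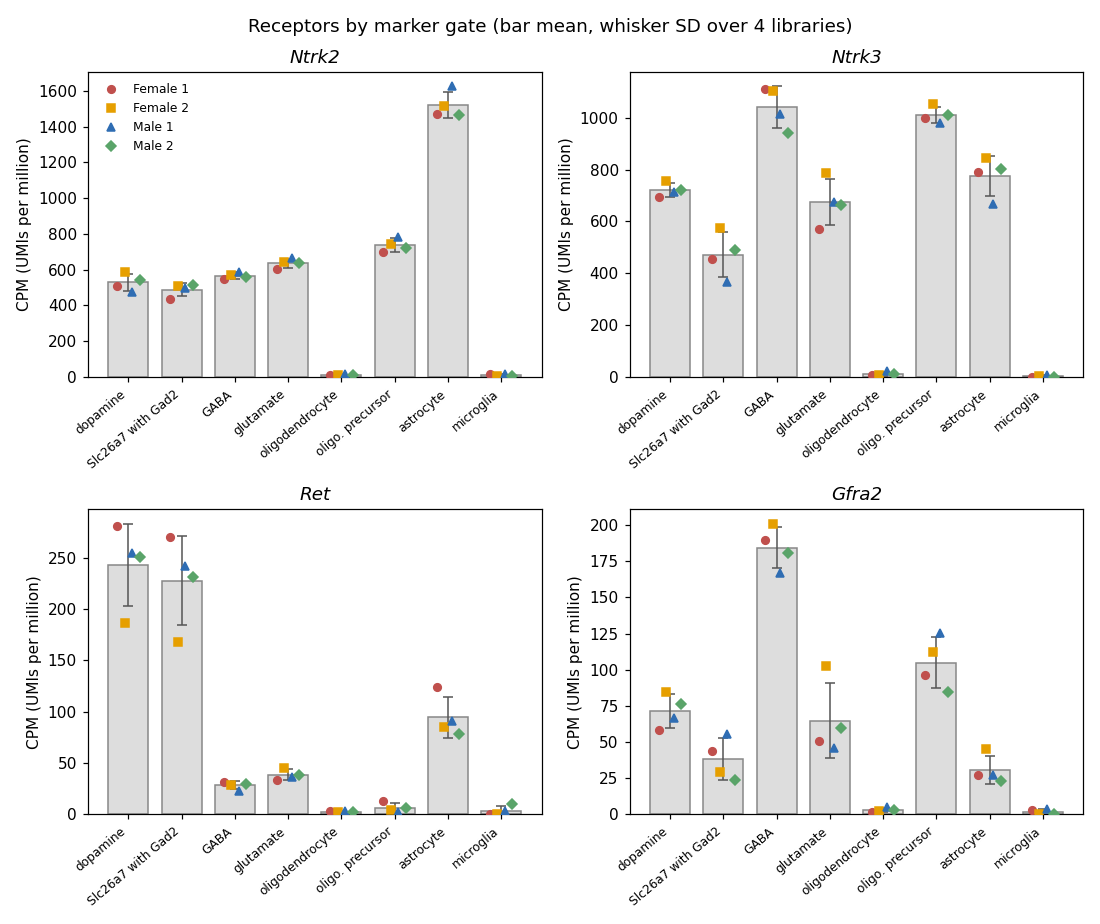
Receptor levels by gate. Each panel plots CPM on its own linear axis from 0, with bars for the mean of 4 libraries, whiskers for the SD and points for the libraries; Ntrk2 peaks in astrocytes (1467 to 1624), Ntrk3 in GABA nuclei and precursors, Ret in the dopamine and Slc26a7 gates, and Gfra2 in GABA nuclei (166.9 to 201.0).

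Set against the mean of the other 7 gates, all 6 tested genes were higher in dopamine nuclei: Ntf3 by 6.73 ± 0.27, Ret by 3.50 ± 0.12, Bdnf by 2.87 ± 0.19, Ntrk3 by 1.84 ± 0.11, Gfra2 by 1.47 ± 0.20 and Ntrk2 by 1.19 ± 0.08 (log2, SE; the highest adjusted p was 2.59e-08, for Gfra2, in edgeR). Of all 12338 genes tested, 28% were called higher in this comparison and 45.7% in either direction, so a call here is common, and the oligodendrocyte and microglia gates with their low values enter the mean. Ntf3 had 0 UMIs in microglia and 1 UMI each in precursors and astrocytes. Its change of 6.73 therefore rests in part on nearly empty gates, and its size is not a measured fold. Within the neuron gates fewer genes separated. Dopamine differed from the Slc26a7 gate in 4 of 6 members, where 13.9% of genes were called, from GABA in 5 of 6, where 28.8% were called, and from glutamate nuclei in 3 of 6, where 23.7% were called. Between the Slc26a7 and GABA gates 3 of 6 members were called (8.96% of all genes), between the Slc26a7 and glutamate gates 5 of 6 (8.23%), and between GABA and glutamate 5 of 6 (12.5%). The direction was mixed against GABA, where Ntf3, Bdnf and Ret were higher in dopamine nuclei and Ntrk3 and Gfra2 lower. These comparisons share gates and libraries and are not independent of each other.

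**Figure D4:**
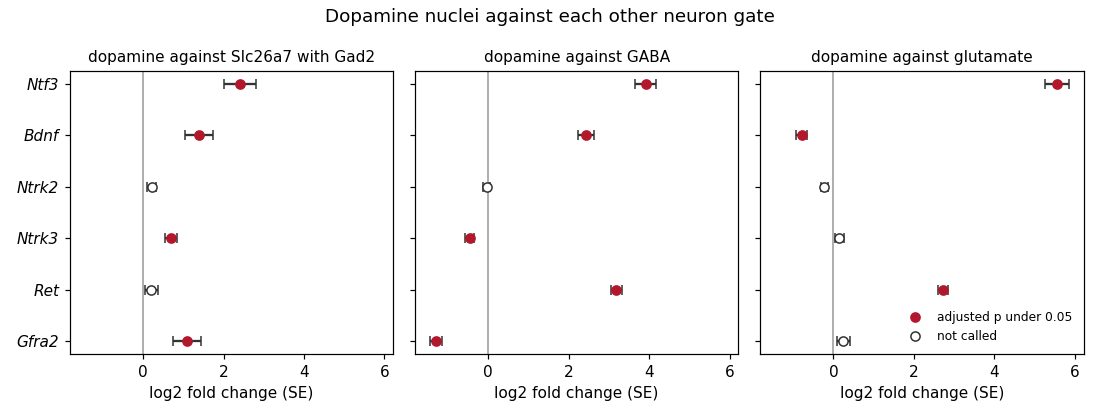
Fitted log2 fold changes of dopamine nuclei against each other neuron gate for the 6 tested genes, with SE as horizontal whiskers. Filled points passed the adjusted threshold and open points did not; Ntf3 lies right of 0 in all 3 panels (2.41, 3.92 and 5.56), and Ntrk2 is open in all 3.

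Ntf3 was uneven among dopamine nuclei. The nuclei were split by whether they held a UMI of Aldh1a1, an aldehyde dehydrogenase of a ventral dopamine neuron subset, and this split and those that follow were chosen with the data in view and are given without a test. In the 183 dopamine nuclei with no Aldh1a1 UMI, Ntf3 stood at 122.3, 153.2, 172.0 and 109.8 CPM in Female 1, Female 2, Male 1 and Male 2. In the 123 nuclei with Aldh1a1 it stood at 46.4, 11.9, 45.9 and 63.7 CPM. The ranges did not overlap, and the mean was 139.3 ± 28.4 CPM without and 42.0 ± 21.7 CPM with Aldh1a1. Median depth was 8791 UMIs per nucleus without and 9616 with Aldh1a1. A split by Slc17a6, the vesicular glutamate transporter, went the same way: 35.0 ± 21.2 CPM in 54 nuclei with it, from 23 UMIs, and 112.1 ± 16.1 CPM in 252 without. Calb1 (calbindin) and Sox6, a transcription factor of substantia nigra-type dopamine neurons, went the other way. Nuclei with a Calb1 UMI held 125.4 ± 10.3 CPM and those without 68.1 ± 24.2 CPM. Nuclei with a Sox6 UMI held 163.9, 144.0, 165.8 and 134.3 CPM of Ntf3, and those without 75.3, 69.9, 87.3 and 86.1 CPM.

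The same splits of dopamine nuclei were made for Bdnf and Ret. Bdnf was 64.8 ± 6.5 CPM with and 54.8 ± 5.2 CPM without Calb1, higher with it in 4 of 4 libraries. It was 47.1 ± 20.5 CPM with and 69.9 ± 9.4 CPM without Aldh1a1, with Male 2 going the opposite way, and 55.9 ± 27.4 with against 60.8 ± 12.4 CPM without Sox6. Ret was lower with Aldh1a1 (203.5 ± 47.9 against 271.7 ± 40.4 CPM without) and lower with Slc17a6 (177.1 ± 24.8 against 259.3 ± 44.1 CPM), each in 4 of 4 libraries and in the same direction as Ntf3. It was 253.7 ± 73.1 CPM with and 243.6 ± 46.9 CPM without Sox6, and 238.3 ± 34.1 with against 250.5 ± 49.6 CPM without Calb1. Both ligands could be seen in the same nuclei: 48 dopamine nuclei held at least 1 UMI of each. Bdnf stood at 84.5 ± 9.1 CPM in the 107 dopamine nuclei with a Ntf3 UMI and at 45.2 ± 9.2 CPM in the 199 without, higher in 4 of 4 libraries, at median depths of 9856 and 8363 UMIs. Ret was detected in 246 of the 306 dopamine nuclei, and Ntf3 was 106.6 ± 13.5 CPM in those and 50.7 ± 17.7 CPM in the other 60, whose median depth was 7083 against 9387 UMIs. Ntrk3 was detected in 105 of the 107 dopamine nuclei with Ntf3, though it was detected in 292 of all 306 dopamine nuclei.

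**Figure D5:**
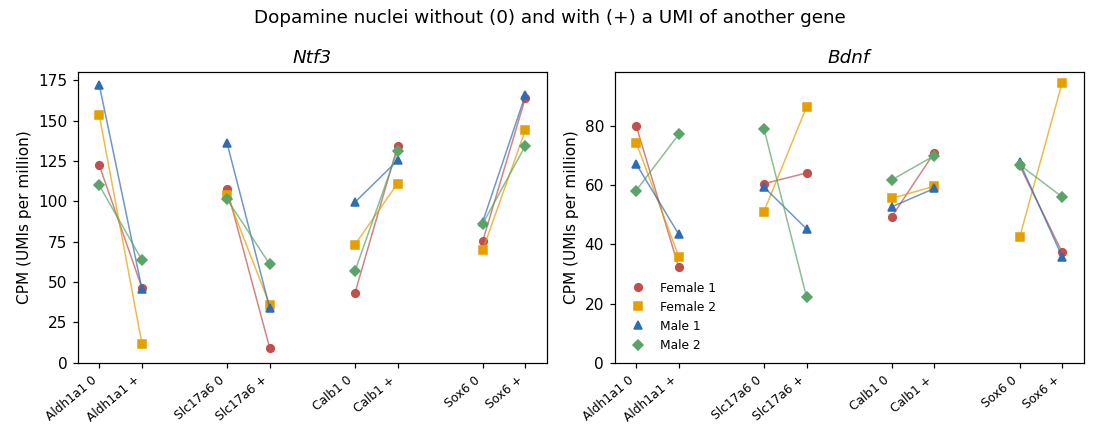
Ntf3 and Bdnf in dopamine nuclei without (0) and with (+) a UMI of Aldh1a1, Slc17a6, Calb1 or Sox6. Each point is 1 library in CPM and each line joins the 2 subsets of a library; all 4 Ntf3 lines fall for Aldh1a1 (mean 139.3 to 42.0) and Slc17a6 (112.1 to 35.0) and rise for Calb1 and Sox6, while Bdnf lines go both ways except for Calb1, where all 4 rise (54.8 to 64.8).

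Glutamate nuclei were heterogeneous for Ret, Bdnf and Gfra2. In the 212 glutamate nuclei with a Th UMI, Ret stood at 76.6, 88.7, 125.2 and 92.4 CPM in the 4 libraries, and in the 1313 without Th at 23.1, 37.4, 24.1 and 30.1 CPM. The ranges did not overlap, and both lay below the dopamine gate. A split by C1ql1, a secreted synaptic organiser, gave 67.7 ± 8.4 CPM of Ret with and 25.2 ± 7.1 CPM without it, and 104.7 ± 42.0 against 45.3 ± 12.6 CPM of Gfra2. Bdnf was highest in the 75 glutamate nuclei with a UMI of Foxb1, a mammillary and hypothalamic transcription factor, at 202.4 ± 27.3 CPM against 102.0 ± 17.5 CPM in the rest, though 1 of those 75 nuclei came from Female 2. The same 75 nuclei held 5 Ret and 3 Gfra2 UMIs. Across glutamate nuclei Gfra2 was 37 ± 10.4 CPM in the 672 with a Bdnf UMI and 89.4 ± 36.9 CPM in the 853 without, lower in 4 of 4 libraries. Ntrk3 was 904.1 ± 84.8 CPM in the 413 glutamate nuclei with a Gfra2 UMI and 576.3 ± 82.7 CPM in the 1112 without.

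Gfra2 also divided the GABA nuclei. In the 120 GABA nuclei with a UMI of Lum, a matrix proteoglycan gene, it stood at 415.8, 354.0, 333.1 and 383.7 CPM, and in the 1011 others at 167.0, 178.7, 152.2 and 155.1 CPM. With Gata3, a GABA lineage factor, it was 72.1 ± 20.9 CPM in 240 nuclei against 223.6 ± 28.3 CPM in 891 without. With Meis2 it was 262.4 ± 23.2 CPM in 419 nuclei against 142.7 ± 20.2 CPM without. Ntrk3 went the opposite way to Gfra2 in the Meis2 split, where nuclei with Meis2 held 621.8 ± 74.8 CPM and the others 1287 ± 113 CPM of Ntrk3, and in the Lum split (735.1 ± 196.7 with, 1075 ± 71.9 CPM without). In the Gata3 split both genes were lower with Gata3, Ntrk3 at 663.9 ± 89.7 against 1172 ± 110 CPM. GABA nuclei with a Gfra2 UMI held 1219 ± 140 CPM of Ntrk3 and those without 817.2 ± 52.7 CPM, higher with it in 4 of 4 libraries. GABA nuclei of all these subsets held low Ret, with means between 9.0 and 35.4 CPM, the highest in those with a Gfra2 UMI.

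The other genes of both pathways were taken from 6 lists of 69 genes, of which 67 were found by name (Gfra1 and Sorl1 were not) and 54 passed the filter. Against the mean of the other gates, 21 of 54 were higher in dopamine nuclei, 5 lower and 28 not called. The share called in either direction was near that of all genes (45.7%), and 28% of all genes were called higher. The median log2 change was 0.19 against 0.02 over all genes. Against GABA nuclei 9 were higher and 17 lower (28.8% of all genes were called in either direction; median -0.13 against -0.02 over all genes), and against glutamate nuclei 7 higher and 13 lower (23.7% of all genes called; median -0.03 against -0.04). Of the other ligands Ntf4, Gdnf, Nrtn, Artn, Pspn and Gdf15, Nrtn alone passed the filter, at 3.54 CPM in dopamine and 10.3 to 12.8 CPM in the other neuron gates. Gdnf was at 0 in the dopamine, Slc26a7, astrocyte and microglia gates and its highest mean was 1.22 CPM, in precursors. Of the other receptors, Gfral, the GDF15 receptor, was higher in dopamine nuclei than the mean of the other gates by 2.94 ± 0.44 (edgeR adjusted p = 2.85e-07), at 11.5 CPM. That mean includes the glial gates, which held means of 0 to 2.00 CPM of Gfral. Gfral exceeded GABA nuclei by 1.31 ± 0.41 (adjusted p = 0.0133). It was not called against the Slc26a7 gate (8.11 CPM, a change of 0.53 ± 0.67) or glutamate nuclei (6.81 CPM, 0.68 ± 0.38). Sdc3, a heparan sulfate proteoglycan, was higher in dopamine nuclei than the mean of the other gates by 0.51 ± 0.19 (adjusted p = 0.0216). Sdc3 was nonetheless lower in dopamine than in GABA nuclei, with a change of -0.53 ± 0.16 (adjusted p = 0.00817), and its mean of 47.2 CPM in dopamine nuclei stood below those of GABA (70.2), glutamate (55.4), astrocyte (102.7) and precursor nuclei (291.4 CPM).

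Of the 9 tested sorting and co-receptors, 4 were higher in dopamine nuclei and 1 lower against the mean of the other gates, where 28% of all genes were higher and 45.7% called in either direction. Slitrk5, a TrkB co-receptor, was higher by 2.05 ± 0.21, and the sorting receptors Sorcs3 and Sorcs2 by 1.85 ± 0.14 and 1.60 ± 0.33, while Sorcs1 was lower, with a change of -1.72 ± 0.33. Against GABA nuclei Sorcs1, Sorcs2 and Sorcs3 were all lower, by changes of -4.12 ± 0.18, -1.46 ± 0.16 and -1.44 ± 0.13. Of 7 processing enzymes, the convertases Pcsk2 and Pcsk1 were higher by 2.36 ± 0.08 and 2.31 ± 0.47. Of 25 tested adaptors 10 were higher and 2 lower, near the 45.7% of all genes called in either direction. Dok6 and Dok5, docking proteins of Ret and Trk receptors, were higher by 2.78 ± 0.08 and 2.25 ± 0.23 and the phospholipase Plcg2 by 2.29 ± 0.34, whereas Frs2 and Grb2 were lower with changes of -0.37 ± 0.09 and -0.31 ± 0.07. The mean of the other gates includes glia with low levels, and a gene above it need not be highest in dopamine nuclei: Slitrk5 stood at 52.4 CPM there and at 64.3 CPM in GABA nuclei, Pcsk2 at 722.5 CPM and at 1097 CPM in the Slc26a7 gate, and Plcg2 at 17.6 CPM and at 159.8 CPM in microglia.

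Among 8 tested response genes, transcripts that growth factor signalling is known to induce, 3 were higher and 2 lower in dopamine nuclei against the mean of the other gates, where 45.7% of all genes were called in either direction. Etv5, an ETS transcription factor, stood at 126.2 CPM in dopamine nuclei against means of 9.47 to 12.0 CPM in the other neuron gates, and exceeded GABA nuclei by 3.42 ± 0.19 and glutamate nuclei by 3.75 ± 0.19. Among glia, precursors held 128.9 CPM and microglia 163.4 CPM of Etv5. Spry4, a feedback inhibitor, was higher by 1.97 ± 0.60, and Vgf, a neurotrophin-induced secreted peptide precursor, by 1.17 ± 0.27. Spry4 stood at 5.87 CPM in dopamine nuclei, 23.8 CPM in precursors and 0 CPM in the Slc26a7 gate. It exceeded glutamate nuclei by 1.38 ± 0.51 (edgeR adjusted p = 0.0426). Against GABA nuclei (edgeR adjusted p = 0.354) and the Slc26a7 gate (edgeR adjusted p = 0.0659) Spry4 was not called. Vgf was nonetheless lower in dopamine than in GABA nuclei, by a change of -2.36 ± 0.19. Dusp6, an ERK phosphatase, and Etv1 were lower, with changes of -3.91 ± 0.85 and -1.44 ± 0.34. Etv1 was nonetheless higher in dopamine (16.2 CPM) than in GABA nuclei (5.30 CPM), by 1.70 ± 0.38 (edgeR adjusted p = 0.000352). Dusp6 had means of 0.326 to 2.46 CPM in the neuron gates and 147.3 CPM in microglia. Dopamine nuclei differed from no other neuron gate in Dusp6 (lowest edgeR adjusted p = 0.251).

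For each tested gene, the 3 genes with the most similar profile were found by Pearson's r of log2 CPM over the 32 sums, which share libraries and gates and are therefore not independent points. The profile of Ntf3 was most like those of Chrna6, a nicotinic receptor subunit (r = 0.95), Drd2, the dopamine D2 receptor (0.92), and Abca3 (0.92). Chrna6 stood at 121.8 CPM in dopamine and 73.5 CPM in Slc26a7 nuclei. Ret was nearest to Wnt5a (0.91), the potassium channel gene Kcnc2 (0.91) and Cpq (0.90), and Bdnf to Strip2 (0.89), Otof (0.88) and Grb10 (0.87). Ntrk2 was nearest to Pitpnm2, Igdcc4 and Cdh10 (each 0.98), Ntrk3 to Dmd (0.98), Kirrel1 and Nell2 (each 0.97), and Gfra2 to Pxylp1 (0.95), the potassium channel subunit gene Kcnab1 (0.95) and Rimbp2 (0.94).

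Female and male libraries were compared within each gate, 2 against 2, with the same edgeR test. None of the 32 tests of a member in a gate was called, 1 had an unadjusted p under 0.05 and the lowest adjusted p was 0.475. By gate, the tests called 0 of 6 members in dopamine nuclei (0.0671% of all genes), 0 of 3 in the Slc26a7 gate (0.0847%), 0 of 6 in GABA (0.0937%), 0 of 5 in glutamate (0.0556%), 0 of 5 in oligodendrocyte (0.0514%), 0 of 3 in precursor (0.125%) and 0 of 4 in astrocyte nuclei (0.0981%). No member had enough counts in microglia, where 0.0875% of genes were called. DESeq2 called none of them either. In dopamine nuclei Ntf3 averaged 91.8 CPM in females and 103.4 CPM in males (log2 female minus male -0.18 ± 0.20, adjusted p = 0.998). In GABA nuclei it averaged 9.40 and 4.36 CPM (1.26 ± 0.62, adjusted p = 0.739). Without Female 1, 2 member tests were called, Ntf3 in GABA and Gfra2 in glutamate nuclei, among 1357 calls over all genes and gates against 61 with all 4 libraries. The interaction of sex with the 6 differences between neuron gates was called in none of 36 tests (lowest adjusted p = 0.986). With 2 pools per sex, these values limit what could be detected and do not show that the sexes were alike.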

How the data were processed

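Libraries were aligned and counted by the authors with Cell Ranger on the rat build rn6, per the submitters' processing notes, with header software version 3.0.2, and with the annotation not given in the sources used here. Each deposited matrix is a table of unscaled UMI counts by feature and barcode. Barcodes with at least 200 genes and at most 5% mitochondrial UMIs were kept, and the highest Scrublet scores (scanpy 1.11.5; 0.8% per 1000 barcodes, 980 nuclei) were removed as doublets. UMIs were summed per library and gate. edgeR 4.0.16 (R 4.3.3; TMM scaling, filterByExpr, glmQLFit and glmQLFTest) was fitted to the 32 sums with library as a block, because gates of a library come from the same pooled animals (correlation of deviations between gates 0.043 to 0.311, over 0.1 in 21 of 28 pairs), and within each gate for sex. The threshold was an adjusted p of 0.05. DESeq2 1.42.0 was an alternative. On simulated data for dopamine against the other gates (11301 genes), 76% of 2-fold and 91% of 4-fold changes were recovered, with 8.24% false calls. For sex in dopamine nuclei, 26% of 2-fold and 64% of 4-fold changes were recovered. The simulation gave all gates a common profile with 200 changed genes and a fixed spread, so its rates need not hold for these data. All 7 genes are named, with up to 3 higher and 3 lower called genes per pathway list at 5 CPM or more in 1 gate. Genes, lists and gates were chosen with earlier results of these data known. Some genes of the lists are counted but not reported here by name. Levels of different genes were not compared, since 3′ UMIs are not scaled by length.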

Additional observations from a re-analysis of the deposited data

Results flagged for a closer look

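The Ntf3 level of Male 1 in dopamine nuclei, 115.1 CPM, stood far from the other 3 libraries (91.4 to 92.2 CPM) by Dixon's criterion at the 95% level. It was 1 of 37 groups of 4 libraries tested in this way, and chance alone flags about 1 in 20. The 4814 nuclei that met no gate entered none of the comparisons and held UMIs of all 7 genes: mean levels were 3.38 CPM for Ntf3, 69.4 for Bdnf, 565 for Ntrk2, 642 for Ntrk3, 4.05 for Ngfr, 35.8 for Ret and 89.4 for Gfra2. In those nuclei Bdnf was 77.2, 37.4, 81.7 and 81.3 CPM in Female 1, Female 2, Male 1 and Male 2. Their summed neuron markers were 2902 to 3084 CPM, against 6739 to 7889 CPM in dopamine and 4138 to 5056 CPM in GABA nuclei. This range overlapped those of the glutamate gate (3028 to 3824 CPM) and the Slc26a7 gate (2873 to 3724 CPM). The highest neuron marker sum of a glial gate was 972.5 CPM, in precursors. Glial markers were present in the nuclei of no gate too. Oligodendrocyte markers summed to 1850 to 5097 CPM there, against 192 to 254 CPM in the glutamate gate and 21713 to 36210 CPM in oligodendrocytes. Astrocyte markers summed to 522 to 907 CPM, against 96.9 to 117.5 CPM in the glutamate gate and 8230 to 8782 CPM in astrocytes. The mean Ngfr level was higher in the nuclei of no gate than in any gate, which was not tested. Male 2 went otherwise, with 1.20 CPM in nuclei of no gate and 1.31 CPM, from 1 UMI, in dopamine nuclei.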

How the results depend on the processing

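Of 638 alternative values for 58 log2 fold changes, 595 kept direction and call, 30 in 10 fold changes lost the call, 9 gained one and 4 changed sign: Ntrk2 in dopamine against GABA nuclei without Male 1 (0.0112; leaving out each library in turn gave -0.0821 to 0.0112), Gfra2 in the Slc26a7 gate against astrocytes with DESeq2 (0.0210) and without Female 2 (0.26; leaving out each library in turn gave -0.299 to 0.26), and Ntrk2 in oligodendrocytes against microglia with doublets kept (-0.12). None of those 4 was called. The excess of Ret in glutamate over GABA nuclei (a change of -0.45, adjusted p = 0.0444) lost its call in 7 alternatives, and the excess of Ntrk3 in precursors over astrocytes (0.25, adjusted p = 0.0462) also in 7; the cause was not tested. The Ntf3 difference between the Slc26a7 and GABA gates passed with DESeq2 (1.62, adjusted p = 0.0362) and without Female 2 (2.36, adjusted p = 0.00942). For sex, the replicate block (Female 1 with Male 1, Female 2 with Male 2) gave 1 member call, Ntrk3 in oligodendrocytes, and 980 calls over all genes and gates against 61 without it. Same-numbered libraries correlated by 0.006 to 0.247 and share only a number. No filter on low counts gave 1 member call and 659 in all, and leaving out a library in turn gave 0 to 2 member calls and 117 to 1357 in all; without Female 1 the calls were Ntf3 in GABA and Gfra2 in glutamate nuclei. In the fit across gates, no replicate block ended the calls of Ntrk3 in dopamine against astrocyte nuclei (-0.33, adjusted p = 0.0544) and of the 2 weak differences above. Depth sets detection shares. Thinned to 2000 UMIs, 14.2% of dopamine nuclei held Ntf3, 37.8% of them Ret, 17.3% of glutamate nuclei Bdnf, 92.1% of astrocytes Ntrk2, and 70.0% and 27.9% of GABA nuclei Ntrk3 and Gfra2. With no thinning these were 35.0%, 80.7%, 43.6%, 96.6%, 91.4% and 53.6%, and Ngfr in oligodendrocytes was 0.478% against 0.225% at 1000 UMIs.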
